A study of Mus musculus with 4 samples.

Results

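The windows described here are stretches of 200 kb of the mouse genome that replicated in early S phase on the control array and in late S phase on the Suv4-20h knockout (KO) array. They number 591 of 11324 autosomal windows (5.22%), cover 118.2 Mb and hold 6224 probes. Timing is given as log2(early/late), the early signal of a probe divided by its late signal, centred on the autosomal median of each array. Values above 0 are thus earlier, and values below 0 later, than that median. A window was taken when its mean timing was above 0 on control and below 0 on KO, and when KO minus control was at or below -0.45. These windows are called members below. The control and KO values chose the windows and are given as a description, with no test. The arrays of non-induced and induced cells played no part in the choice.

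The cells were mouse embryonic fibroblasts (MEF), connective tissue cells grown from embryos, with 1 array for each of 4 groups. The labels call the groups control, deletion of the floxed SUV4-20H1 allele (KO), Non-induced suv4-20h mutant and induced suv4-20h mutant. The treatment text attached to every sample describes deletion of the allele with 4-hydroxytamoxifen (1 mM, 24 hours). It does not say which samples received it or how the induced cells were induced. All 4 samples carry the line name MEF 362.2, while the growth text gives 364.2, and neither a Cre driver nor an independent clone is named. A BrdU pulse of 1 hour (50 µM) marked newly made DNA, sorting of 80000 cells separated early from late S phase, and each array compared the early DNA (Cy3) with the late DNA (Cy5). With 1 array per group no test between conditions was possible. Every standard error (SE) below covers the spread between probes of 1 array only.

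DNA replication proceeds in large domains that copy at characteristic times of S phase, and open, gene-rich chromatin usually copies before compact, gene-poor chromatin. Suv4-20h1 and Suv4-20h2 are the enzymes that carry out di- and trimethylation of lysine 20 of histone H4. The trimethylated form is a mark of heterochromatin, and methylation of this lysine has also been tied to the licensing of replication origins. The comparisons ask where in the genome timing differs between control and KO cells, and between non-induced and induced mutant cells.

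Control and KO lay on 1 slide and non-induced and induced on another, so differences within a pair do not cross slides and those across pairs do. Median early signal lay 140 to 204 intensity units above the local background, and median late signal 220 to 434 units above it. Between 89.1% and 94.9% of probes passed the scanner's limit for signal well above background in both channels. Timing values spread over 1.81 on control, 2.32 on KO, 2.07 on non-induced and 2.70 on induced, measured from the 10th to the 90th percentile. Of 122 probes on the Y chromosome, 107 were well above background on KO and 50, 53 and 41 on control, non-induced and induced. The total signal of the X chromosome was lower on KO than on control by 0.49 on the log2 scale, against -0.26 to 0.27 for single autosomes. Control and KO thus differ on the sex chromosomes as well, and a difference in the origin of the cells and the deletion cannot be told apart.

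On control the 591 windows sat only just on the early side. Median control timing was 0.19 (lowest 0.00051, highest 1.04), against 0.71 in the other 4495 windows above 0 on control. In 165 of the 591 control timing was below 0.1, and in 311 it was below 0.2. On KO the median was -0.91 (lowest -2.09, highest -0.0062), with 472 windows below -0.5 and 234 below -1. The median difference of KO minus control was -1.09 (lowest -2.57, highest -0.45), with a median SE over probes of 0.19. The difference was at least 3 SE below 0 in 529 windows (89.5%). The choice of windows by this same difference favours such a count, and the share over all windows is not given here. Differences at or below -0.45 occurred in 26.3% of all autosomal windows, and the rule admitted only those that also crossed 0. The opposite change, from below 0 on control to above 0 on KO by 0.45 or more, occurred in 449 windows (3.97%).

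Near the threshold the choice was a matter of small differences. The 26 windows just inside it had differences of -0.50 to -0.45, and 20 windows that also crossed 0 had differences of -0.45 to -0.40 and were left out. In all, 166 windows crossed 0 in this direction and missed the threshold. The share of windows taken fell with control timing: 364 of 1005 windows (36.2%) with control timing from 0 to 0.25, 181 of 909 (19.9%) from 0.25 to 0.5, 39 of 1141 (3.42%) from 0.5 to 0.75, and 7 of 2031 (0.345%) above that. The clearly early part of the control genome was thus hardly represented among the 591.

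In windows with enough probes to be split, the difference between KO and control was shared by neighbouring probes. When windows were chosen by the same rule on odd-numbered probes alone and read on the even-numbered probes between them, the 257 windows measured on both had a median KO minus control of -0.85. Of these, 217 (84.4%) were at or below -0.45 on the even-numbered probes, against 18.5% of all windows. With the roles of the probes exchanged, the median was -0.81 and 218 of 268 windows (81.3%) passed, against 19.2% of all. The position on the early side of control was held less often. Control timing was above 0 on the other probes in 198 windows (77.0%) and 198 windows (73.9%), and the whole rule was met in 159 windows each time. Both sets of probes were read on the same arrays, so this comparison covers probe noise and not differences between cultures. Odd- and even-numbered probes each had to reach the minimum number per window, so windows with few probes were left out. Of the 591 windows, only 251 could be measured on odd-numbered probes and 257 on even-numbered ones.

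On the arrays that the rule did not use, most of the 591 windows were late in non-induced as well as in induced cells when the processed signals were used. Median timing was -0.23 on non-induced (lowest -1.29, highest 1.08) and -0.78 on induced (lowest -1.93, highest 1.05). Non-induced timing was below 0 in 436 windows (73.8%), where 55.3% of all autosomal windows and 6.85% of the other windows above 0 on control were below 0. Induced timing was below 0 in 487 windows (82.4%), against 56.9% of all and 7.88% of the other control-early windows. Windows that moved from above 0 on non-induced to below 0 on induced numbered 56 (9.48%), against 2.49% of all windows. The reverse, from below to above, occurred in 5, against 0.857% of all windows. The side of 0 depended on the processing. With normexp background correction of the raw signals, the medians of the same 591 windows were -0.0052 on non-induced and -0.079 on induced. Of these windows 298 were then below 0 on non-induced and 359 on induced, against 54.5% and 56.5% of all windows. With centring on the window median, the medians were -0.03 and -0.38, and 315 and 430 windows were below 0, against 50.0% of all.

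Induced cells had lower timing than non-induced cells in 521 of the 591 windows (88.2%), against 62.1% of all windows. The median of induced minus non-induced was -0.46, against -0.11 in all windows and 0.13 in the other control-early windows. It was at or below -0.45 in 300 windows (50.8%), against 21.8% of all windows and 0.779% of the other control-early windows, and at or above 0.45 in 2 windows, against 1.34% of all. Windows at or below 0 on control had a median of -0.32, between that of the members and that of all windows. Windows with few probes had lower values in general: among windows with 5 or 6 probes the median was -0.57 in members and -0.41 in all, and with 7 to 9 probes -0.50 and -0.29. With 20 or more probes it was -0.33 and 0.04. The size of the difference also depended on how low signals were treated. With normexp, the same 591 windows had a median of -0.083, and 6 of them (1.02%) were at or below -0.45, against 1.29% of all windows. Scaling the arrays to the same spread gave -0.32, with 33.8% of the windows and 7.31% of all windows at or below -0.45. With only probes well above background on all arrays, 325 of the 591 windows could be measured, and their median was -0.22. Of these, 21.8% were at or below -0.45, against 11.8% of all windows. The median stayed below 0 in each of these settings, but so did that of all windows, at -0.051, -0.089 and -0.089 in the same order. KO minus control in the same member windows was -0.57, -1.09 and -0.85, against -0.064, -0.16 and -0.13 in all windows.

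**Figure D1:**
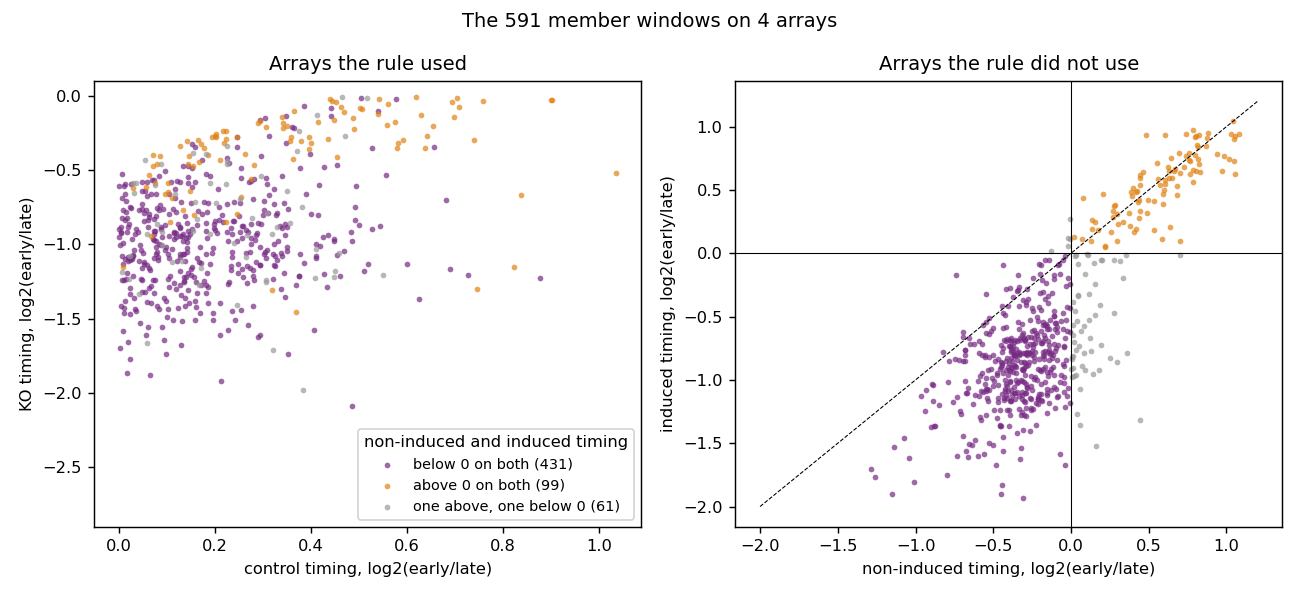
Timing of the 591 windows as log2(early/late), 1 point per window, on control (x) and KO (y) at left and on non-induced (x) and induced (y) at right. Colours mark timing on the non-induced and induced arrays (below 0 on both in 431, above 0 on both in 99), and at right most purple points lie under the dashed line of equal timing, with a median difference of -0.52.

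The rule favours a high control and a low KO value, so the order of the arrays is a description. Timing increased in the order from KO through induced and non-induced to control in 294 windows (49.7%, against 8.95% of all windows), and from induced through KO and non-induced to control in 145 (24.5%, against 13.8%). Control was the highest of the 4 arrays in 495 windows (83.8%, against 36.0% of all) and KO the lowest in 416 (70.4%, against 32.0%). Non-induced minus control, which crosses slides, had a median of -0.43, against -0.056 in all windows, and was below 0 in 501 (84.8%, against 55.9%). KO minus non-induced had a median of -0.73, against -0.10 in all windows, and was at or below -0.45 in 443 windows (75.0%, against 23.7%). Both differences use an array that the rule selected on. When non-induced took the place of control in the rule, 568 windows met it, of which 145 were among the 591 (25.5% of the former and 24.5% of the latter). Across the 591 windows timing correlated between KO and induced with Pearson's r of 0.62 and between non-induced and induced with r of 0.82. KO minus control and induced minus non-induced correlated with r of 0.44, against 0.49 over all windows. These correlations run over windows that share arrays, probes and neighbours, and describe these 4 arrays only.

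By their timing on the non-induced and induced arrays the windows fell into classes of different character. In 431 windows (72.9%, against 54.4% of all windows) both arrays were below 0. In 99 windows (16.8%, against 42.2% of all) both were above 0, so that KO was the single late array. The remaining 61 were above 0 on 1 of the 2, 56 of them on non-induced. The 431 windows late on both had median timing of 0.16 on control, -0.98 on KO, -0.33 on non-induced and -0.87 on induced. The 99 windows early on both had 0.34, -0.30, 0.61 and 0.58 in the same order. In these 99 the choice of the class sets KO apart, and induced minus non-induced had a median of -0.03. The 56 windows above 0 on non-induced and below 0 on induced had 0.23, -0.91, 0.09 and -0.63.

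**Figure D2:**
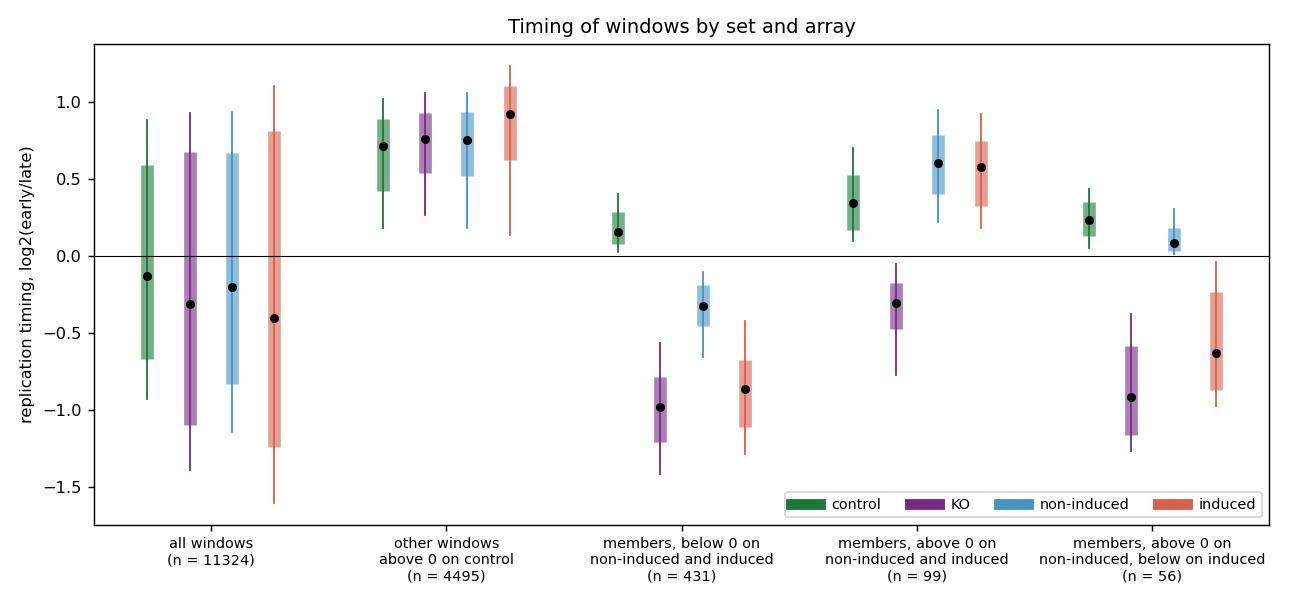
Replication timing as log2(early/late) on the 4 arrays for all windows, the other control-early windows and 3 classes of the 591 windows. Points are medians, thick bars the middle 50% and thin lines the 10th to 90th percentile of windows. The 431 windows late on both other arrays have a control median of 0.16 and a KO median of -0.98, and the 99 early on both have 0.34 and -0.30.

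The classes had different values in the 2 labelled fractions on KO. Since KO minus control chose the windows, at least 1 channel had to differ, and these values are a description. Signals of each channel are given as log2 relative to the autosomal median of that channel. In the 431 windows late on both other arrays, the early channel had a median of -0.41 on control and -1.61 on KO, while the late channel had -0.58 and -0.64. The early channel was lower on KO than on control in 421 of the 431, with a median difference of -1.19, and the late channel differed by -0.08. A lower early channel on KO was also found in 49.9% of all windows and in 81.5% of windows late on all 4 arrays, where the median difference was -0.61. On control both channels of these windows were under the autosomal median, unlike windows late on all 4 arrays, where the early channel had -0.21 and the late channel 0.48. In the 99 windows late on KO alone, the late channel was higher on KO in 95, with a median difference of 0.46, and the early channel differed by -0.17. The late channel was higher on KO in 50.4% of all windows and in 74.9% of the other control-early windows. The early channel was lower on KO in 71 of the 99 (71.7%), against 49.9% of all windows and 14.8% of the other control-early windows. In those other control-early windows the median difference was 0.29 in the early channel and 0.19 in the late channel. Here the signals were near or above the autosomal median: on control 0.43 early and -0.05 late, on KO 0.26 early and 0.55 late.

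**Figure D3:**
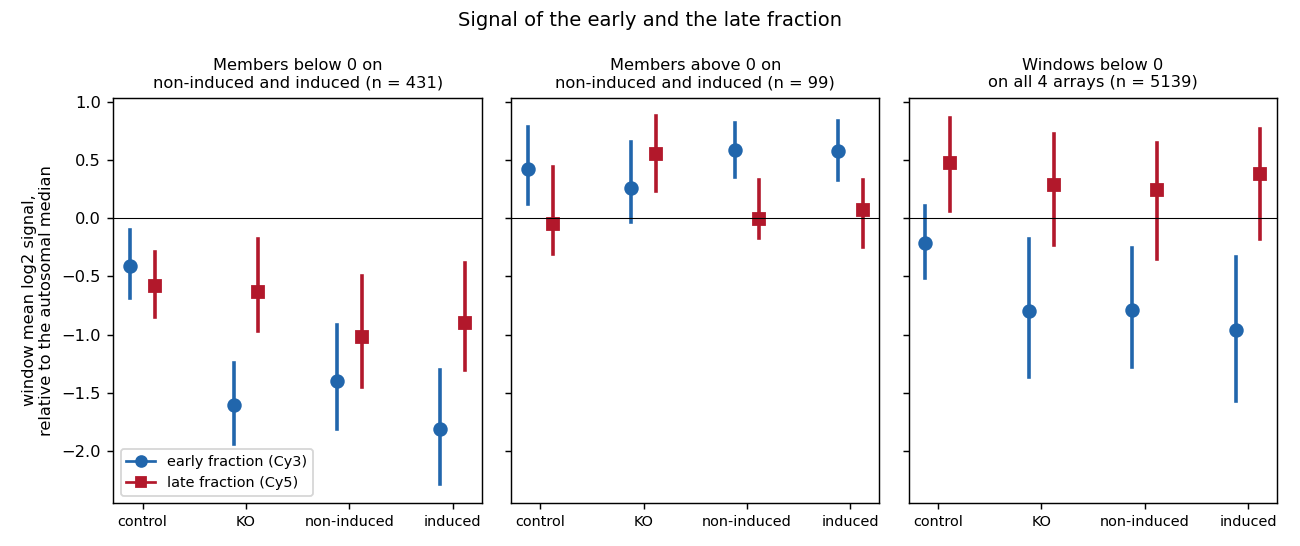
Median signal of the early (blue circles) and late (red squares) fraction on each array, as log2 relative to the autosomal median of the channel, with bars for the middle 50% of windows. In the 431 windows at left the early signal is -0.41 on control and -1.61 on KO, and in the 99 windows in the middle the late signal is -0.05 on control and 0.55 on KO.

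Most of the windows were dim and held few probes. They had a median of 8 probes, against 15 in all windows. The 431 windows late on both other arrays had 7, the 56 windows that crossed 0 between non-induced and induced had 6, and the 99 windows late on KO alone had 17. Of windows with 5 or 6 probes, 235 of 1923 (12.2%) were among the 591, and these made up 55.7% of the control-early windows with so few probes. With 7 to 9 probes the share was 8.64%, with 10 to 14 it was 3.63%, with 15 to 19 it was 2.69% and with 20 or more 2.89%. Windows that changed in the opposite direction were not crowded at low probe numbers, with shares of 2.50%, 3.79%, 5.16%, 4.59% and 3.32% in the same order.

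Signal was sorted on the non-induced and induced arrays, which the rule did not use, into 4 classes of equal size. The dimmest class held 400 of the 591 windows (67.7%), and 14.1% of its windows were members. The other classes held 61, 59 and 71, or 2.15%, 2.08% and 2.51% of their windows. Windows of the opposite change made up 0.60% of the dimmest class and 2.58%, 4.84% and 7.84% of the others. The early channel of probes in the 591 windows was well above background in 98.4% of cases on control, 86.2% on KO, 88.2% on non-induced and 72.1% on induced, against 98.5%, 95.4%, 96.0% and 90.4% for all windows. The part of low signal in the timing of these windows was not tested beyond the alternatives given here. When only probes well above background in both channels on all arrays were used, 315 windows met the rule, 255 of them among the 591. When windows needed at least 10 probes, 242 met it.

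**Figure D4:**
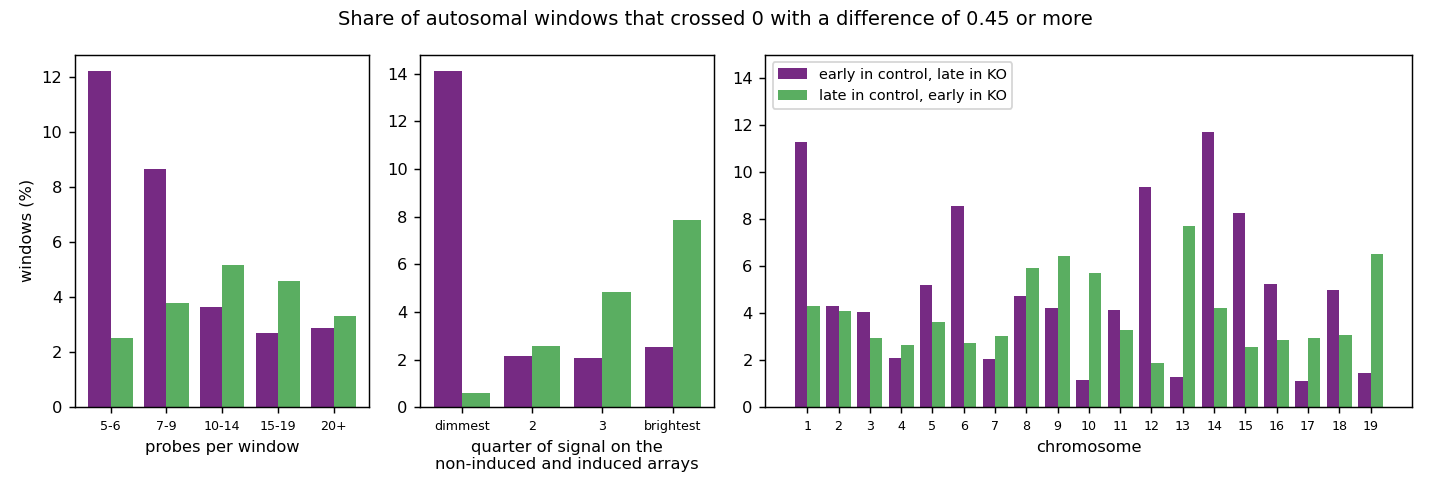
Percent of autosomal windows that crossed 0 from control to KO with a difference of 0.45 or more, toward late (purple) and toward early (green), by probes per window, by class of signal on the non-induced and induced arrays, and by chromosome. The purple share is 12.2% at 5 or 6 probes and 14.1% in the dimmest class, where the green share is 2.50% and 0.60%, and on chromosomes 1 and 14 it is 11.3% and 11.7%.

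The windows were spread unevenly over chromosomes. Chromosome 14 had 64 (11.7% of its windows and 27.8% of its control-early windows), chromosome 1 had 102 (11.3%), chromosome 12 had 50 (9.36%), chromosome 6 had 60 (8.56%) and chromosome 15 had 39 (8.28%). Chromosomes 1, 6, 12 and 14 together held 276 (46.7%), against 23.7% of all windows. At the other end, chromosome 19 had 4, chromosome 17 had 5, and chromosomes 10 and 13 had 7 each. More windows changed toward late than toward early on 11 of the 19 autosomes. The ends of chromosomes held few: 27 windows (4.57%, against 7.75% of all) lay within 10 Mb of the first window, and 9 (1.52%, against 8.01%) within 10 Mb of the last.

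Along the chromosomes the windows gathered in blocks. Another member lay directly next to 402 of them (68.0%): 77.3% of those late on both other arrays and 31.3% of those late on KO alone. Of all windows 5.22% were members. The same count for windows of the opposite change is not given here. Merging windows less than 1 Mb apart gave 188 regions. Of these, 101 were single windows, 45 held 2 to 4 windows, 28 held 5 to 9 (175 windows) and 14 held 10 or more (189 windows). The control genome had 826 runs of windows above 0, of which 275 held at least 1 of the 591. In 172 of these runs (437 windows) every window was a member. Most were short: 86 were single windows, the median was 1.5 windows, and 27 held 5 or more, up to 15. The other 103 runs also held windows that did not meet the rule, and contained 154 of the windows, 93 of them as the first or last window of the run.

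The surroundings of members had medians below 0 on all 4 arrays, as did all windows. In windows 3 Mb to either side of a member, median timing was -0.21 on control, -0.83 on KO, -0.43 on non-induced and -0.83 on induced. All autosomal windows had medians of -0.13, -0.31, -0.20 and -0.40 in the same order. In the member itself the medians were 0.19, -0.91, -0.23 and -0.78. Control was thus higher at the member than in these surroundings by 0.39, which the rule sets. On the arrays that the rule did not use, the member was higher by 0.19 on non-induced and by 0.05 on induced.

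The 12 regions with the most members held 169 of the 591 windows (28.6%) in spans of 2.8 to 5.4 Mb. Coordinates follow the deposited probe positions (mouse build mm9). The files used here pair probes with positions and not with genes, so genes, exons and other annotation of these regions were not analysed here. Over the 12 regions mean timing was 0.10 to 0.32 on control, -1.27 to -0.80 on KO, -0.41 to -0.25 on non-induced and -0.997 to -0.58 on induced. All 12 were below 0 on both arrays that the rule did not use, as were 155 of the 169 windows on non-induced and all 169 on induced. Over all autosomal windows 55.3% were below 0 on non-induced and 56.9% on induced. Induced minus non-induced of the 12 regions was -0.66 to -0.33, and 109 of the 169 windows were at or below -0.45, against 21.8% of all windows. The 12 regions were dim as well: their early channel lay at -0.81 to -0.11 on control and at -1.99 to -1.30 on KO.

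The region with the most windows was chr1:100800001-106200000, with 20 member windows and 191 probes. Its timing was 0.25 ± 0.03 (SE over probes, as for the regions that follow) on control, -1.16 ± 0.04 on KO, -0.27 ± 0.04 on non-induced and -0.76 ± 0.06 on induced. All 20 windows were below 0 on non-induced and on induced, and 11 had induced minus non-induced at or below -0.45. A further region of chromosome 1, chr1:25800001-30000000 with 17 windows, had 0.20 ± 0.03 on control, -0.97 ± 0.06 on KO, -0.28 ± 0.05 on non-induced and -0.86 ± 0.06 on induced. A last one, chr1:114800001-118600000 with 14 windows, had 0.32 ± 0.04, -1.07 ± 0.07, -0.33 ± 0.04 and -0.85 ± 0.07 in that order.

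Chromosome 14 held 2 regions of 16 windows. In chr14:81200001-85200000 timing was 0.22 ± 0.04 on control, -0.99 ± 0.07 on KO, -0.25 ± 0.06 on non-induced and -0.89 ± 0.08 on induced. In chr14:111600001-115200000 it was 0.28 ± 0.04, -0.80 ± 0.07, -0.25 ± 0.05 and -0.58 ± 0.08, and induced minus non-induced was -0.33 ± 0.08. With normexp correction this last difference was 0.04, on the other side of 0.

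The region of the 12 with the most probes was chr2:40200001-43200000, 15 adjacent windows with 236 probes. Its timing was 0.31 ± 0.03 on control, -0.96 ± 0.04 on KO, -0.29 ± 0.04 on non-induced and -0.95 ± 0.05 on induced. All 15 windows had induced minus non-induced at or below -0.45, with a mean of -0.66 ± 0.05. KO and induced differed here by less than the spread over probes, and non-induced lay between them and control.

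The other regions of the 12 were chr12:47000001-49800000, chr2:86000001-89000000, chr8:99400001-102800000, chr3:71600001-74800000, chr18:26400001-30200000 and chr15:15600001-18400000. The chromosome 12 region had the lowest KO timing of the 12, at -1.27 ± 0.07 against 0.26 ± 0.06 on control, -0.27 ± 0.06 on non-induced and -0.91 ± 0.08 on induced. The chromosome 2 region had the lowest induced timing, at -0.997 ± 0.05 against 0.12 ± 0.03 on control, -1.15 ± 0.04 on KO and -0.34 ± 0.04 on non-induced. In the chromosome 8 region induced minus non-induced was -0.49 ± 0.08 and turned to 0.03 with normexp correction.

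Each of the 12 regions stood above late flanks on control. Within 1 Mb on either side, control timing of the windows outside the region was -0.77 to -0.15, and the flanks of all 12 were below 0 on every array. The region was above its flanks by a median of 0.70 on control (lowest 0.31, highest 0.98) and 0.05 on KO (lowest -0.19, highest 0.51), values that the choice of windows by control and KO largely sets. On the arrays that the rule did not use it was above its flanks by 0.46 on non-induced (lowest 0.07, highest 0.72) and by 0.38 on induced (lowest 0.08, highest 0.75), in all 12 regions on both. Over the 42 regions with 5 or more members, the region was above its flanks in 39 on non-induced, with a median of 0.43, and in 37 on induced, with a median of 0.33. Over these 42 regions the contrast ran from -1.14 to 0.76 on non-induced and from -1.34 to 0.75 on induced. The lowest contrast on both arrays was that of chr9:67800001-69400000. Its flanks were early on all 4 arrays, at 0.53 on control, 0.45 on KO, 0.77 on non-induced and 0.85 on induced.

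**Figure D5:**
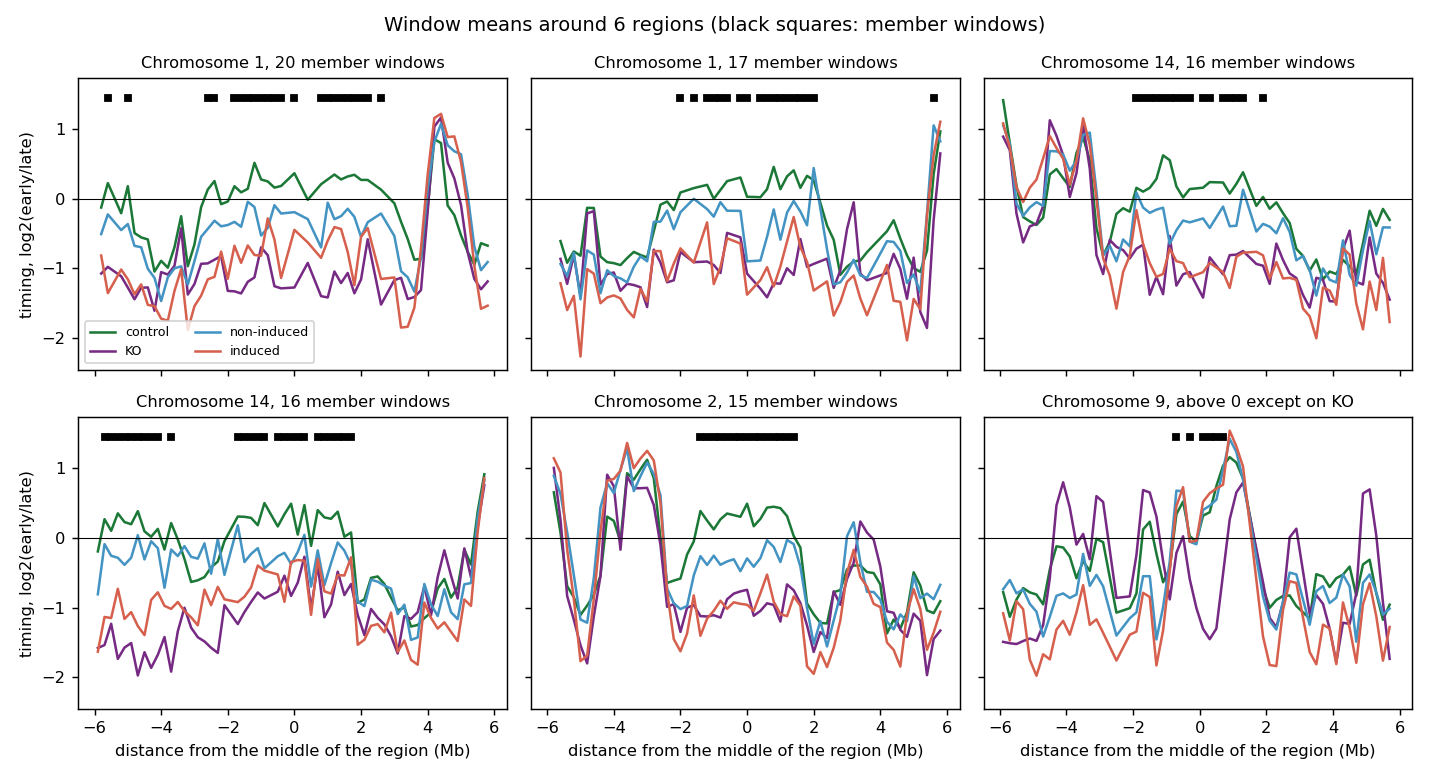
Window means of timing as log2(early/late) on the 4 arrays against the distance in Mb from the middle of the 5 regions with the most members and of the largest region late on KO alone (chromosome 9), with black squares over member windows. Over the member windows of the first 5, control means are above 0, KO means -1.16 to -0.80 and induced means -0.95 to -0.58, with non-induced between. Outside the members the control line often lies below 0. In the 5 chromosome 9 windows chosen as late on KO alone the KO mean is -0.87. A further member there and the window next to it are slightly below 0 on non-induced and induced too.

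The 99 windows late on KO alone lay in 77 regions, 64 of them single windows and 7 of 3 windows or more. They made up 16.8% of all members. Chromosome 12 held 13 among its 50 members, chromosome 9 held 11 among 25 and chromosome 15 held 11 among 39. Chromosome 1 held 9 among 102 and chromosome 7 held 8 among 13. The largest of the 77 regions was chr9:86400001-88000000, with 5 windows and 60 probes. Its timing was 0.53 ± 0.07 on control, -0.87 ± 0.10 on KO, 0.62 ± 0.06 on non-induced and 0.60 ± 0.06 on induced. The early channel went from 0.11 on control to -0.71 on KO and the late channel from -0.43 to 0.10, so that both fractions differed. The window chr9:87600001-87800000 inside it had 0.75 ± 0.11 on control, -1.30 ± 0.16 on KO, 0.55 ± 0.15 on non-induced and 0.71 ± 0.10 on induced over 13 probes. Its KO minus control of -2.05 ± 0.18 was among the 5 lowest outside the 12 regions.

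The other regions given here were likewise below 0 on KO alone, with smaller differences between KO and control. In chr9:22600001-23600000 timing was 0.60 ± 0.10 on control, -0.66 ± 0.08 on KO, 0.75 ± 0.10 on non-induced and 0.93 ± 0.10 on induced. In chr6:127400001-128000000 it was 0.30 ± 0.06, -0.57 ± 0.09, 0.64 ± 0.11 and 0.64 ± 0.07 in that order. In chr12:99400001-100000000 it was 0.49 ± 0.05, -0.31 ± 0.06, 0.48 ± 0.06 and 0.47 ± 0.06. Regions of 3 windows at chr1:6000001-6600000, chr7:82200001-83200000 and chr1:180800001-181400000 had KO timing of -0.30 ± 0.09, -0.30 ± 0.07 and -0.32 ± 0.07 and were above 0 on the other arrays. The early channel was not lower on KO at chr7:82200001-83200000 (0.41 on control, 0.50 on KO) or chr1:180800001-181400000 (0.09 and 0.11). In the other regions of this paragraph it was lower on KO. The choice of these windows sets the side of 0 on all 4 arrays.

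The other 4 of the 5 lowest single windows outside the 12 regions were sparse. The lowest of them, chr14:108600001-108800000, had KO minus control of -2.36 ± 0.31 over 5 probes, with 0.38 on control, -1.98 on KO, 0.04 on non-induced and -1.27 on induced. The nearby windows chr14:109600001-109800000 (5 probes) and chr14:108000001-108200000 (7 probes) had -2.13 ± 0.12 and -2.09 ± 0.45. In chr6:74400001-74600000 the value was -1.98 ± 0.57 over 5 probes. Induced minus non-induced in these 4 windows was -1.31 ± 0.65, -0.85 ± 0.25, -0.45 ± 0.26 and -0.87 ± 0.56, lower than 0 in all and within 2 SE of 0 in 2 of them.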

How the data were processed

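Early and late S phase DNA of 4 samples was hybridised to 4 arrays of 2 colours. Per the file headers, the authors read them with Agilent Feature Extraction 11.5.1.1 (the submitters' processing notes name 9.1). The deposited processed signals are intensity values after background subtraction, detrending and 1 linear dye factor per channel, with no lowess. The deposited value table holds log10 late over early and was used as an alternative with its sign turned. Spot flags of 0 or 1 are other values per the file headers. Dyes were not swapped.

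Timing was log2 of early over late processed signal of genomic spots (174305 spots, 170305 probes), averaged per probe, centred on the autosomal median and averaged in 200 kb windows on mm9 with 5 or more probes (161460 autosomal probes; 498 bins had fewer). Spots of all qualities were kept, as the rule states. Members less than 1 Mb apart were merged, and the 12 regions with the most members and the 5 lowest windows outside them were named by rule; the regions late on KO alone were chosen after their values were seen. The members, classes and lists were chosen with earlier results of these data known. No signal was compared between conditions by a test, because each group has 1 array. Window choice was tried on simulated timing values, with independent noise added to the same base profile for control and KO. Signal levels and differences in spread between arrays were not simulated, so this trial does not cover dim windows. Normexp (offset 50, limma 3.58.1, R 4.3.3) was run on raw median signals. Genes were not placed, since the gene tables used here follow a different build. Other tools were Python 3.11.15, numpy 2.4.6, pandas 2.3.3 and matplotlib 3.10.9.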

Additional observations from a re-analysis of the deposited data

Results flagged for a closer look

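Windows outside the autosomal set were examined by the same values. On the X chromosome 40 of 687 windows (5.82%) were above 0 on control and below 0 on KO by 0.45 or more, and 38 of them were below 0 on non-induced and 39 on induced. Of the 498 autosomal bins with 1 to 4 probes, 56 (11.2%) had such values, 41 of them below 0 on non-induced and 50 on induced. These bins rest on at most 4 probes each.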

How the results depend on the processing

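The number of windows that met the rule was 447 to 700 under 13 alternatives and fell to 315 with only probes well above background, 242 with at least 10 probes, 308 with 400 kb windows, and 268 and 282 on odd- and even-numbered probes. The median of induced minus non-induced, -0.46, stayed below 0 throughout. Its value was -0.31 after scaling the arrays to 1 spread, -0.26 with quantile normalization, -0.084 with normexp, -0.32 with centring on windows, -0.18 with probes well above background, -0.33 with at least 10 probes, -0.26 with 100 kb windows, -0.43 with shifted windows, -0.42 and -0.50 with thresholds of -0.30 and -0.60, and -0.27 on odd- and on even-numbered probes. Over all windows the median was -0.11 in the main setting, -0.089 after scaling and 0.0050 with quantile normalization. With normexp the median of all windows was -0.051, with centring on windows 0.087 and with probes well above background -0.089.

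The share below 0 on non-induced was 52.1% with normexp, 67.6% with window centring, 61.6% with probes well above background, 62.8% with at least 10 probes, 60.1% and 77.6% with 100 kb and 400 kb windows, 69.7% and 79.2% with thresholds of -0.30 and -0.60, and 60.8% and 62.4% on odd- and even-numbered probes. Of all windows, 54.5% were below 0 on non-induced with normexp, 50.0% with window centring and 51.2% with probes well above background. With normexp the share in members was thus below that in all windows. On induced the share in members was 64.0% with normexp, 87.7% with window centring, 64.8% with probes well above background, 66.5% with at least 10 probes, 64.1% with 100 kb windows, 77.9% and 87.7% with those thresholds, and 66.8% and 67.4% on odd- and even-numbered probes. Of all windows, 56.5% were below 0 on induced with normexp, 50.0% with window centring and 52.9% with probes well above background. Shares of all windows under the other alternatives are not given here.

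Windows late on KO alone numbered 199 and 53 with 100 kb and 400 kb windows and 61 at -0.60. Merged regions numbered 125 with 400 kb windows and 295 when only adjacent windows were merged. With normexp, induced minus non-induced turned to 0.040 in the chromosome 14 region starting at 111600001 and to 0.027 in the chromosome 8 region starting at 99400001. KO minus control and induced minus non-induced of the 12 regions were recomputed under 10 alternatives. The former was below 0 in 120 of 120 values and the latter in 118 of 120. The cause of these differences was not tested. The alternative in which windows were chosen on even-numbered probes and read on odd-numbered ones was added after the data were seen. No paired analysis was possible because each group has 1 array. Low signal over background in the early channel limits what can be said of the dim windows.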
